A study of Mus musculus with 8 samples.

Results

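The Z-disc and M-band genes are 38 genes of the sarcomere, the contractile unit of striated muscle, and of its assembly, out of 27179 genes in the expression table. They were chosen by name: the alpha-actinins, the Z-disc proteins that bind them, the myomesins and myosin-binding proteins of the M-band and C-zone, the proteins of the thin filament's pointed end, the muscle ankyrin repeat and signalling proteins, and chaperones of sarcomere assembly. The list was set with earlier results of these data known. All 38 genes were found in the table by their Entrez identifier. C2C12 cells, an immortalized line of mouse myoblasts, were profiled by RNA-seq and by MeRIP-seq, in which an antibody against N6-methyladenosine (m6A) pulls modified RNA fragments out of fragmented poly(A) RNA. Proliferating cells (GM) were taken at 50% confluence in high glucose medium with 10% fetal bovine serum. Differentiating cells (3d DM) were taken 3 days after cultures over 90% confluent were moved to 2% horse serum. Each state has 2 input libraries (the RNA before precipitation) and 2 immunoprecipitated (IP) libraries, and both states come from the same unmodified line on collagen-coated dishes.

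The Z-disc is the protein plate at each end of the sarcomere, where alpha-actinin crosslinks the barbed ends of actin filaments from neighbouring sarcomeres and anchors titin. The M-band holds the thick filaments in register at the middle of the sarcomere, through the myomesins and obscurin-like proteins, and myosin-binding protein C sits on the thick filament in the C-zone beside it. C2C12 myoblasts in low serum leave the cell cycle, fuse into myotubes and build sarcomeres, while the non-muscle members of the same families serve actin bundles and adhesions in cells of many kinds.

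Values of the expression table are a normalized signal in arbitrary units, with nearly the same sum in every column, so the sequencing depth behind them is unknown. The state of the cultures was checked on 5 genes. *Mki67*, a proliferation marker, was 3586.0 and 3658.9 in GM against 446.3 and 760.4 in 3d DM, where the values here and throughout stand in the order of replicates 1 and 2. The myogenic factor *Myog* was 1007.8 and 220.8 in GM against 5392.0 and 11502.3 in 3d DM, and *Myh3*, *Ckm* and *Mymk* rose with it by 6.26, 5.38 and 4.82 on the log2 scale. GM replicate 1 stood apart from GM replicate 2: its *Mki67* was close to that of replicate 2, while the 5 myotube markers summed to 2951.9 in replicate 1 and to 621 in replicate 2. The same markers summed to 47827.8 and 75171.5 in 3d DM. Markers of other cells were mixed. The endothelial (*Pecam1*, *Cdh5*) and macrophage (*Ptprc*, *Adgre1*) pairs summed to 2.21 or less in every library, and the adipocyte genes *Adipoq* and *Fabp4* were listed at 0. The third adipocyte marker, *Pparg*, was 146.1 and 135.5 in GM against 44.5 and 49.3 in 3d DM and fell by 1.57 on the log2 scale (limma adjusted p = 0.0218). The 3 osteoblast markers summed to 574 and 674 in GM against 240 and 345 in 3d DM, nearly all from *Runx2*, with *Sp7* and *Bglap* at 8.5 or less. The 4 smooth muscle markers summed to 4781.1 and 10933.3 in GM and to 14848.2 and 26807.7 in 3d DM, mostly from *Acta2*, while *Myh11* was at 6.0 or less. The 4 cardiac markers summed to 44 and 55.2 in GM and to 398 and 597 in 3d DM, where *Myh6* gave 373.0 and 568.5. *Nppb* went the other way, at 24.0 and 44.1 in GM against 9.2 and 15.7 in 3d DM. *Nppa* and *Tnni3* were at 16.0 or less in every library. What part cells of these other kinds had in the members' levels was not tested.

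Of the 38 members, 27 were higher in 3d DM than in GM, none was lower, 6 did not pass the test and 5 lay under the filter on low values (limma on log2(value + 1), Benjamini-Hochberg adjusted p under 0.05 over the 11406 genes that reached a value of 25.1 in at least 2 libraries). Of all genes tested, 7.01% were higher in 3d DM and 9.96% were lower. The filter matters for this list, because 11 members passed it through the 3d DM libraries alone and had to be higher there. These were *Actn2*, *Myoz2*, *Tcap*, *Csrp3*, *Mybpc1*, *Mybpc2*, *Ankrd2*, *Smpx*, *Ablim3*, *Unc45b* and *Hspb7*, and their adjusted p-values add no support for a rise. A further 4 members passed it in both 3d DM libraries and 1 GM library. Among the 18 members over the filter in every library, 12 were higher in 3d DM, beside 4.12% of the 10211 genes that meet the same condition. Their differences ran from -0.56 to 6.40 with a median of 2.92, whereas the median of those 10211 genes was -0.24 and that of all 11406 genes -0.22. The members were chosen with earlier results of these data known, so this contrast describes the list and is no independent support. Both 3d DM libraries were above both GM libraries for 29 of the 33 members tested and for 16.8% of all genes tested. The 29 include the 11 members that passed the filter through 3d DM alone, whose states could not overlap. The standard errors, 0.40 to 0.72 on the log2 scale, follow a trend over the level of all genes and hardly a gene's own spread between its 2 libraries, so the adjusted p-values do not measure that spread. With each gene's own variance instead, no member and no other gene passed (limma's linear model without moderation, lowest adjusted p of a member 0.356). In that model 21 of the 33 members tested had an unadjusted p under 0.05, beside 13.2% of all genes. The 33 include the 11 members that had to be higher in 3d DM, so their share is no independent support. Nothing in the labels says that the 2 libraries of a state came from separate cultures.

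**Figure D1:**
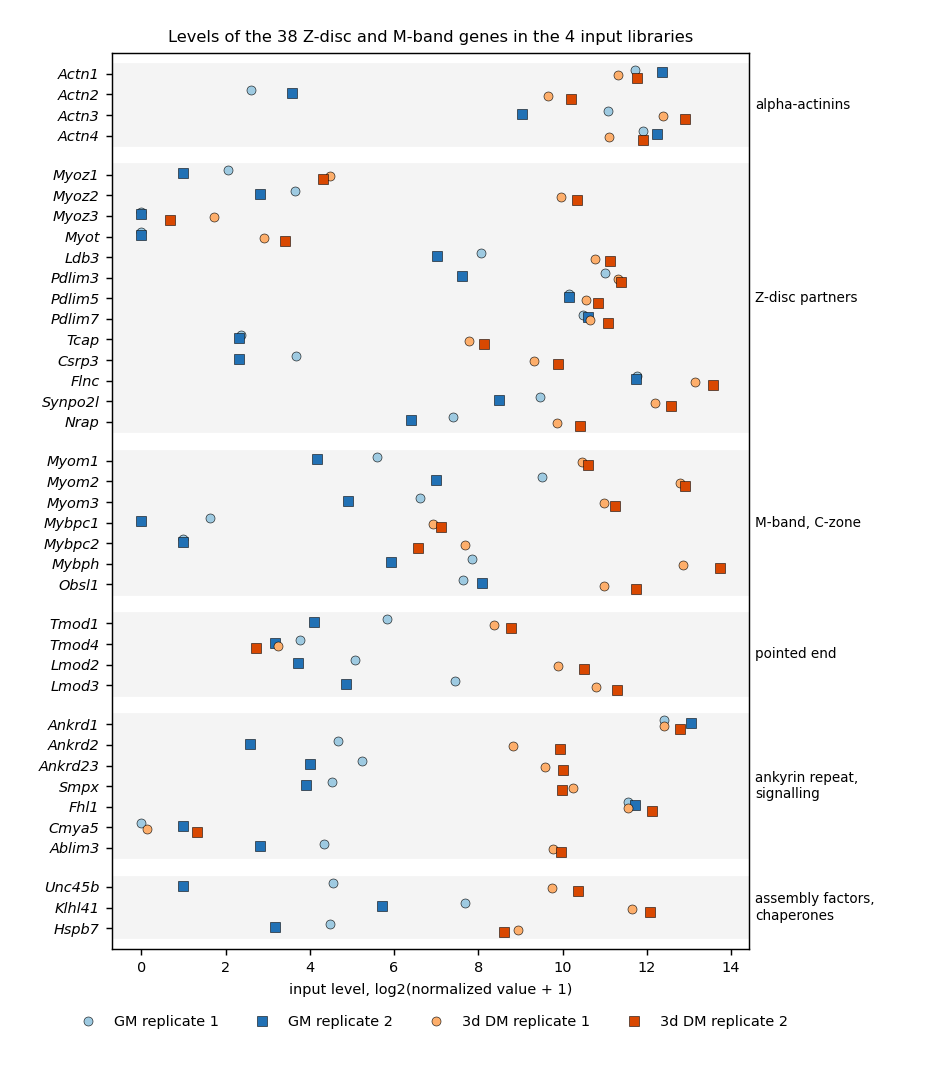
Input level of each member on the log2(normalized value + 1) scale, by functional group, with 1 point for each of the 4 input libraries. Blue GM points lie left of orange 3d DM points for most rows, GM replicate 1 lies right of GM replicate 2 for most of them, and *Actn1*, *Actn4*, *Ankrd1* and *Fhl1* lie together at the right.

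Levels of the members also differed between replicates of a state. Of the 27 members that rose, 25 were higher in GM replicate 1 than in replicate 2, with a median difference of 1.37 on the log2 scale, where the median over all genes tested was 0.21. In bulk RNA, more cells that express a gene and more RNA per cell cannot be told apart. Without GM replicate 1 all 27 still passed. Without GM replicate 2, 25 passed, *Actn3* and *Pdlim3* being the ones lost. The count fell further without a 3d DM library, in fits where the spread of all genes is taken from the 2 GM libraries alone. Without 3d DM replicate 1, 13 members passed, and *Actn3*, *Ldb3*, *Pdlim3*, *Flnc*, *Nrap*, *Myom2*, *Myom3*, *Mybpc1*, *Tmod1*, *Lmod3*, *Ankrd2*, *Unc45b*, *Klhl41* and *Hspb7* did not, with limma adjusted p-values from 0.0501 for *Myom3* to 0.497 for *Pdlim3*. Calls higher in 3d DM fell over all genes as well in that fit, from 7.01% to 0.885%, and the differences of these members stayed of close size, such as 5.48 for *Myom3* (5.35 with all libraries) and 7.58 for *Unc45b* (7.27). Without 3d DM replicate 2, 20 passed, and *Actn3*, *Pdlim3*, *Flnc*, *Myom2*, *Tmod1*, *Lmod3* and *Unc45b* did not, with adjusted p-values from 0.0606 for *Unc45b* to 0.37 for *Pdlim3*. Of all genes 1.72% were higher in that fit, and the differences were again of close size, such as 6.96 for *Unc45b*, 4.64 for *Lmod3* (4.88 with all libraries) and 4.52 for *Myom2* (4.58). In these fits a single library stands for the state and is assumed to vary as the others do. *Myog*, *Ckm* and *Mymk* lost their calls in the same 2 fits.

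The alpha-actinins separated by their muscle and non-muscle forms. *Actn2*, the sarcomeric form shared by heart and all skeletal fibres, was 5.1 and 11 in GM against 808.4 and 1172.3 in 3d DM. *Actn3*, the form of fast fibres, was 2143.2 and 527.9 in GM against 5348.9 and 7729.0 in 3d DM. The states did not overlap for either gene, but *Actn3* was already high in GM, where it varied most among the 4. *Actn2* rose by 6.83 ± 0.52 (difference in log2(value + 1) ± standard error, limma adjusted p = 1.86e-36) and *Actn3* by 2.59 ± 0.41 (adjusted p = 1.19e-08). Of the 2, *Actn2* passed the filter through 3d DM alone, so its p-value adds no support. The call for *Actn3* was lost without GM replicate 2, at a difference of 1.58 and an adjusted p of 0.0678, and without 3d DM replicate 1 or 2 (2.86 and 2.33, adjusted p = 0.152 and 0.15). *Actn1*, a crosslinker of stress fibres and adhesions, was 3380.8 and 5255.5 in GM against 2546.4 and 3499.6 in 3d DM. *Actn4*, its non-muscle partner, was 3814.0 and 4805.9 in GM compared with 2185.7 and 3837.5 in 3d DM. Both overlapped between states, with differences of -0.50 ± 0.41 and -0.56 ± 0.41 that did not pass the test (adjusted p = 0.497 and 0.419). Per kilobase of exon, *Actn3* held 37.4% and 9.48% of the summed level of the 4 alpha-actinins in GM against 64.2% and 63% in 3d DM. *Actn2* held 0.0686% and 0.151% in GM against 7.41% and 7.3% in 3d DM. *Actn1* and *Actn4* were therefore the larger share in GM and the smaller one in 3d DM without a called change in their own level.

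Among the Z-disc proteins that bind alpha-actinin or titin, 8 of 13 rose, *Pdlim5* and *Pdlim7* did not pass the test, and *Myoz1*, *Myoz3* and *Myot* were under the filter. *Myoz2*, a calsarcin that tethers calcineurin to alpha-actinin, was 11.6 and 6.0 in GM against 997.7 and 1292.0 in 3d DM. *Csrp3*, the muscle LIM protein, was 11.7 and 4.0 in GM against 636.9 and 955.5 in 3d DM. *Tcap*, which caps titin's end at the Z-disc, was 4.2 and 4.0 in GM compared with 217.7 and 279.6 in 3d DM. All 3 were at 11.7 or less in both GM libraries and at 217.7 or more in 3d DM, with differences of 6.91 ± 0.51, 6.61 ± 0.53 and 5.60 ± 0.61. *Ldb3*, also called Cypher or ZASP, which binds alpha-actinin through its PDZ domain, was 268.3 and 129.5 in GM against 1745.7 and 2220.0 in 3d DM. *Synpo2l*, an actin-bundling protein of the Z-disc, was 706.7 and 359.3 in GM against 4659.6 and 6051.9 in 3d DM. *Nrap*, a nebulin-related scaffold of early myofibrils, was 168.4 and 83.3 in GM compared with 933.9 and 1361.8 in 3d DM. These 3 were present in GM, were higher in GM replicate 1 than in replicate 2, and rose by close amounts: 3.39 ± 0.44, 3.39 ± 0.42 and 3.24 ± 0.45.

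*Flnc*, the muscle filamin, was 3468.2 and 3427.0 in GM against 8965.8 and 12063.2 in 3d DM. Its GM replicates were nearly equal, and it rose by 1.59 ± 0.40 (limma adjusted p = 9.53e-04), the smallest change among the 27. That call was lost when either 3d DM library was left out (adjusted p = 0.0583 without replicate 1 and 0.0695 without replicate 2). *Pdlim3*, the actinin-associated LIM protein, was 2063.6 and 194.7 in GM against 2562.4 and 2673.3 in 3d DM. Its GM libraries differed by a factor of 10.6 and GM replicate 1 lay close to 3d DM, so its difference of 2.04 ± 0.42 (limma adjusted p = 2.41e-05) was 0.34 without GM replicate 2 (adjusted p = 0.94), did not pass without either 3d DM library (0.497 and 0.37), and did not pass under either rescaling (adjusted p = 0.139). *Pdlim5* was 1129.0 and 1145.0 in GM compared with 1492.0 and 1819.6 in 3d DM, and *Pdlim7*, an Enigma protein of many cell types, was 1429.7 and 1556.5 in GM against 1617.7 and 2156.4 in 3d DM. The states did not overlap for either gene, but the differences of 0.53 ± 0.42 and 0.32 ± 0.42 did not pass (adjusted p = 0.473 and 0.711). *Pdlim5* passed after rescaling, with an adjusted p of 0.037 by median-of-ratios factors. *Myoz1*, the calsarcin of fast fibres, was 3.2 and 1.0 in GM against 21.3 and 18.9 in 3d DM. *Myot*, or myotilin, was listed at 0 in both GM libraries and at 6.5 and 9.6 in 3d DM, and *Myoz3* was listed at 0 in GM and at 2.3 and 0.6 in 3d DM.

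All 7 M-band and C-zone genes rose, by 3.50 to 6.40 on the log2 scale (limma adjusted p from 1.60e-47 for *Mybph* to 5.19e-14 for *Obsl1*). Among them *Mybpc1* and *Mybpc2* passed the filter through 3d DM alone and had to be higher there. *Myom1*, the myomesin found in all striated muscle, was 47.6 and 17.1 in GM compared with 1398.3 and 1559.7 in 3d DM. *Myom2*, or M-protein, was 734.5 and 127.5 in GM against 7060.7 and 7705.6 in 3d DM. *Myom3* was 97.1 and 29.1 in GM against 2029.9 and 2418.9 in 3d DM. The 3 crosslinkers of thick filaments kept the same order per kilobase in every library, with *Myom2* highest and *Myom1* lowest. They rose by 5.64 ± 0.47, 4.58 ± 0.42 and 5.35 ± 0.45, and per kilobase of exon *Myom2* held 62.9% and 61.3% of their sum in 3d DM, *Myom3* 26.5% and 28.2%, and *Myom1* 10.5% in both libraries. *Obsl1*, the obscurin-like partner of myomesin, was 197.4 and 271.9 in GM compared with 2007.6 and 3428.9 in 3d DM, and it was one of only 2 risen members that were lower in GM replicate 1 than in replicate 2, the other being *Actn2*.

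The myosin-binding proteins differed widely in level. *Mybph*, myosin-binding protein H, was 230.7 and 60.2 in GM against 7458.9 and 13608.2 in 3d DM. *Mybpc1*, the slow skeletal form of protein C, was 2.1 and 0.0 in GM against 120.1 and 138.1 in 3d DM. *Mybpc2*, the fast form, was 1.0 in both GM libraries against 204.0 and 93.4 in 3d DM. *Mybph* had the highest 3d DM level per kilobase of all 38 members, 3202.6 and 5842.9, and *Mybpc1* at 26.5 and 30.5 and *Mybpc2* at 56.5 and 25.9 per kilobase were below every other member that rose. Their differences were of close size, 6.40 ± 0.43 for *Mybph*, 6.19 ± 0.72 for *Mybpc1* and 6.10 ± 0.70 for *Mybpc2*, where the last 2 depend on GM values at or near 0 and on the added 1 of the log scale. *Mybph* alone made up 97.5% to 99.2% of the summed level of the protein C and H family per kilobase in the 4 libraries.

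At the thin filament's pointed end, 3 of the 4 members rose. *Lmod2*, a leiomodin that nucleates and lengthens actin filaments, was 32.8 and 12.1 in GM compared with 955.8 and 1455.1 in 3d DM. *Lmod3*, the leiomodin prominent in skeletal muscle, was 173.0 and 28.1 in GM against 1771.5 and 2488.0 in 3d DM. *Tmod1*, a tropomodulin that caps the filament, was 56.0 and 16.1 in GM against 327.9 and 434.3 in 3d DM. The leiomodins rose by 5.81 ± 0.49 and 4.88 ± 0.45 and *Tmod1* by 3.60 ± 0.51 (limma adjusted p from 2.20e-30 for *Lmod2* to 7.83e-11 for *Tmod1*). *Tmod4*, the tropomodulin of skeletal muscle, was 12.7 and 8.0 in GM compared with 8.5 and 5.6 in 3d DM, which is low in all 4 libraries, with overlapping states and no test. Per kilobase, *Tmod1* held 19.8% and 6.76% of the tropomodulin sum in GM against 75.9% and 72.7% in 3d DM, and the non-muscle form *Tmod3* held 69.4% and 84.8% in GM against 19.2% and 25% in 3d DM.

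Of the 7 ankyrin repeat and signalling genes, 4 rose, *Ankrd1* and *Fhl1* did not pass, and *Cmya5* was under the filter. *Ankrd1*, a stretch-responsive protein of the I-band and nucleus, was 5402.4 and 8400.5 in GM against 5421.7 and 7078.3 in 3d DM. *Ankrd2* was 24.4 and 5.0 in GM against 453.2 and 977.6 in 3d DM. *Ankrd23* was 37.0 and 15.1 in GM compared with 760.9 and 1024.2 in 3d DM. These 3 genes encode one family, and 2 of its members rose by 5.75 ± 0.52 and 5.16 ± 0.49 while *Ankrd1*, the most abundant member gene per kilobase in GM, differed by -0.12 ± 0.40 (adjusted p = 0.904) with a sign that turned under rescaling. Even so, *Ankrd1* still held 73.4% and 66.4% of the family's level per kilobase in 3d DM. *Smpx*, a small protein of the costamere, was 22.1 and 14.1 in GM against 1204.2 and 1013.1 in 3d DM. *Ablim3*, an actin-binding LIM protein, was 19.1 and 6.0 in GM against 873.2 and 995.0 in 3d DM. Both were low in GM and rose by 5.89 ± 0.49 and 6.29 ± 0.51. *Fhl1*, a LIM-domain protein with roles in hypertrophic signalling, was 3017.1 and 3367.8 in GM compared with 2989.7 and 4420.3 in 3d DM, with overlapping states and a difference of 0.19 ± 0.41 (adjusted p = 0.847). *Cmya5*, or myospryn, was listed at 1.5 or less in every library.

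The 3 assembly factors rose by 4.96 to 7.27. *Unc45b*, the chaperone that folds the myosin head in muscle, was 22.4 and 1.0 in GM against 857.2 and 1318.2 in 3d DM. *Klhl41*, a Kelch protein that stabilizes nebulin, was 204.5 and 51.2 in GM against 3230.2 and 4284.0 in 3d DM. *Hspb7*, a small heat shock protein that binds filamin C, was 21.2 and 8.0 in GM compared with 494.5 and 392.1 in 3d DM. *Unc45b* had the largest difference of all members, 7.27 ± 0.53, but its GM libraries differed by a factor of 21.9. *Klhl41* rose by 5.17 ± 0.44 (limma adjusted p = 1.43e-29) and *Hspb7* by 4.96 ± 0.53. *Unc45b* and *Hspb7* passed the filter through 3d DM alone, so their limma adjusted p-values (1.72e-40 and 1.19e-18) add no support for a rise. *Unc45a*, the general form of the chaperone, was 341.8 and 240.9 in GM against 112.4 and 236.7 in 3d DM, and *Unc45b* went from 6.87% and 0.475% of the pair's level per kilobase in GM to 89.6% and 86.2% in 3d DM.

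**Figure D2:**
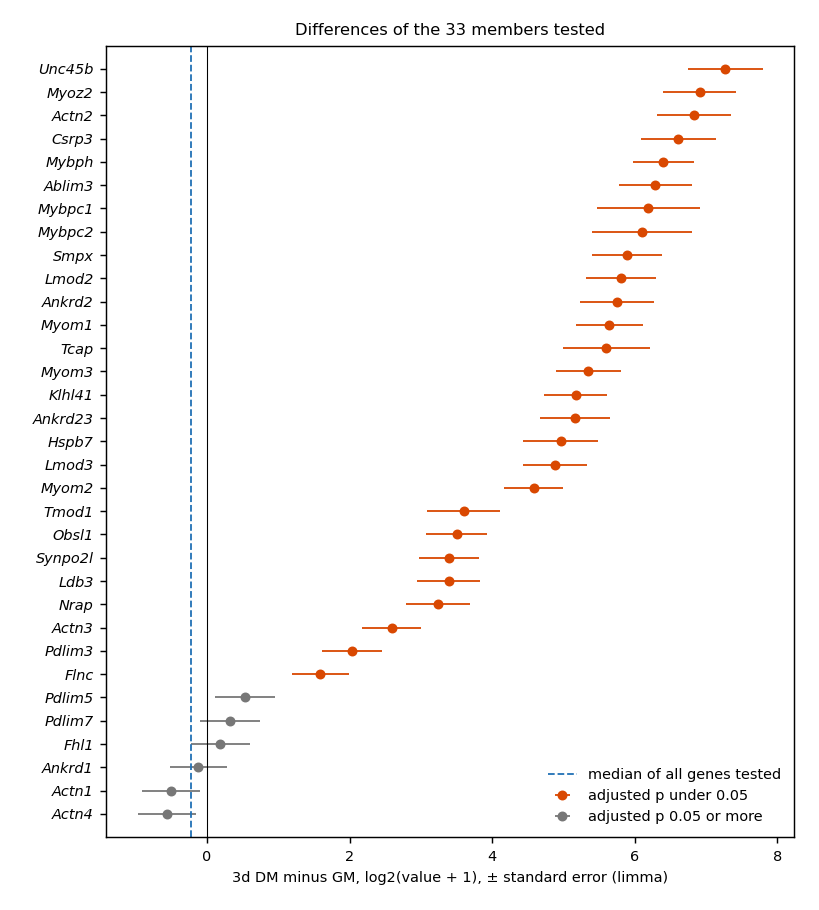
Difference between 3d DM and GM in log2(value + 1) for the 33 members tested, as points with ± 1 standard error from limma, in order of size. The 27 orange points (adjusted p under 0.05) lie between 1.59 and 7.27, the 6 grey points between -0.56 and 0.53, and the dashed line is the median of all genes tested at -0.22.

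Ordered by level per kilobase in 3d DM, *Mybph* stood first and apart from *Actn3* at 1843.8 and 2664.2 and *Ankrd1* at 1878.6 and 2452.6, which overlapped each other. *Klhl41* followed at 1277.3 and 1693.9. From *Klhl41* down to *Smpx* at 529 and 445, each gene overlapped the next in its 2 libraries, so the order of such neighbours is not resolved. Genes further apart in that stretch could differ without overlap, as *Klhl41* did from *Myom2* at 798 and 870. In GM the order was another one, led by *Ankrd1*, *Fhl1*, *Actn1* and *Actn4*, with *Mybph* at place 11 and *Actn2* at place 32.

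The families of the members also hold genes outside the list, of which 26 were looked up. Of these paralogs, 8 rose, 4 fell, 11 did not pass and 3 were under the filter, with a median difference of 0.61. After rescaling by median-of-ratios factors 10 rose and 2 fell. *Flna*, the filamin of most cells, was 13028.7 and 19063.0 in GM against 5437.4 and 8149.4 in 3d DM. It fell by 1.24 ± 0.40 on the log2 scale (limma adjusted p = 0.015), a call that held under neither rescaling (adjusted p = 0.0627 by median-of-ratios factors). *Hspb6*, a small heat shock protein, was 297.6 and 207.7 in GM against 60.2 and 80.6 in 3d DM, and it fell by 1.82 ± 0.50 (limma adjusted p = 0.00249). Neither fall passed without 3d DM replicate 1 or without replicate 2 (adjusted p from 0.0682 to 0.317), nor did that of *Flna* without GM replicate 2 (0.385) and that of *Hspb6* without GM replicate 1 (0.174). Among the largest rises were those of *Hspb3* (1.1 and 0.0 in GM, 42.6 and 67.5 in 3d DM) and of *Klhl40*, the partner of *Klhl41* (52.9 and 15.1 in GM, 653.2 and 859.9 in 3d DM). Neither passed without 3d DM replicate 1 (limma adjusted p = 0.052 for *Hspb3* and 0.0544 for *Klhl40*).

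Of 24 other genes of the Z-disc, M-band and sarcomere assembly, 14 rose, none fell, 8 did not pass and 2 were under the filter, with a median difference of 2.34. Among the largest rises were those of *Trim63*, a ubiquitin ligase of the M-band, and of *Mypn*, or myopalladin. *Trim63* was 36.2 and 3.0 in GM against 440.9 and 663.2 in 3d DM, and *Mypn* 11.8 and 0.0 against 123.4 and 197.8. The differences were 5.47 ± 0.53 and 5.45 ± 0.66, and neither passed when either 3d DM library was left out (limma adjusted p from 0.087 to 0.13).

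**Figure D3:**
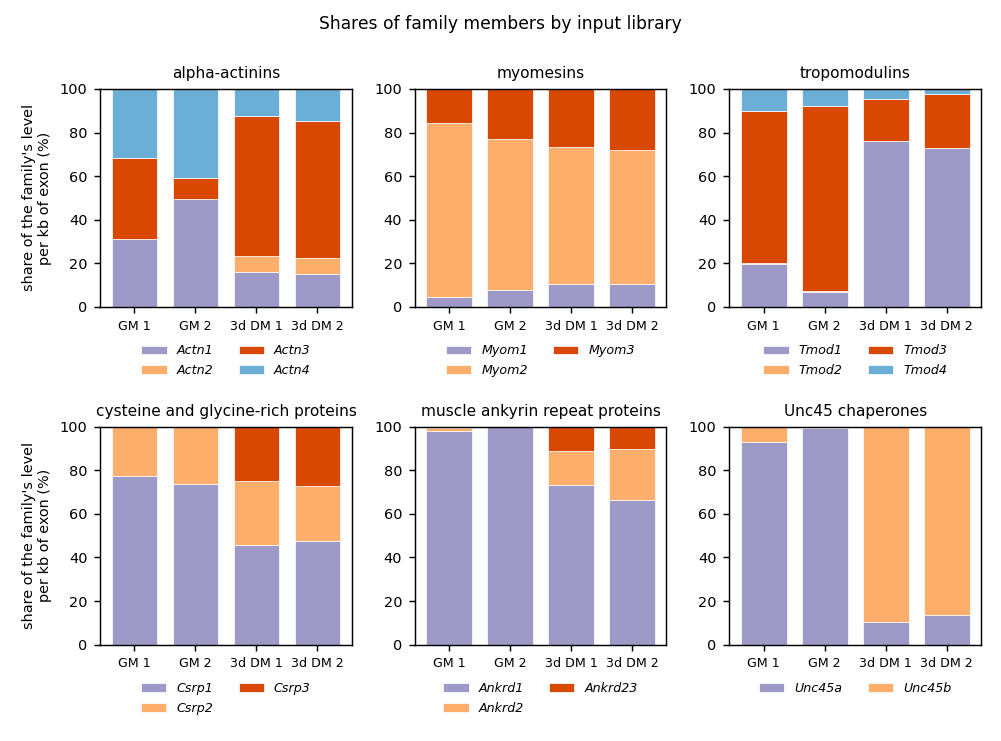
Share of each gene in its family's summed level per kilobase of exon (percent, bars stacked to 100) in the 4 input libraries, for 6 families. The muscle forms *Actn2*, *Actn3*, *Tmod1*, *Csrp3*, *Ankrd2*, *Ankrd23* and *Unc45b*, and *Myom1* and *Myom3* among the myomesins, take a larger share in both 3d DM libraries than in either GM library.

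The promoters of the members were read for 3 short motifs, in the RefSeq windows (build GRCm38.p6) from 250 bases before to 50 bases after each start. Windows were given for 30 of the 38 members, 37 in all. The E-box CAGCTG, a palindrome of the class that myogenic factors bind, was in 9 of the 37 windows (24.3%) and in 16.3% of all 32851 windows. The MEF2 motif was in 5 (13.5%) and in 3.19% of all, and TATAAA on either strand was in 4 (10.8%) and in 13.6% of all. The 9 members with the E-box were *Klhl41*, *Lmod2*, *Mybpc1*, *Mybph*, *Myoz2*, *Nrap*, *Obsl1*, *Pdlim3* and *Synpo2l*, and those with the MEF2 motif were *Klhl41*, *Myom3*, *Myoz2* and *Synpo2l*. A match of letters is a description of the sequence, and binding was not measured. Shown here are the matches whose window of 30 bases lies wholly before the start (*Obsl1* has a pair, named by their distance from it), with the E-box in capitals, 5′ to 3′ on the gene's strand. Their places are chr2:69669981-69670010 (plus strand), chr10:88605222-88605251 (minus), chr1:134193357-134193386 (plus), chr1:75506588-75506617 and chr1:75506622-75506651 (both minus) and chr8:45885336-45885365 (plus).
Klhl41: ttcaatctcaaaCAGCTGaacagcagcact
Mybpc1: gagcacgaggcaCAGCTGaatttagaaagt
Mybph: gacctgaccccaCAGCTGggaatggtttgc
Obsl1 nearer: ttttgggattggCAGCTGcaggcgacaaag
Obsl1 farther: gctcttgtcctcCAGCTGtgtcatcagaga
Pdlim3: ggcgactgcaccCAGCTGggagcgcctctg

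m6A is a methyl mark that the METTL3 complex places on adenosines within the DRACH sequence (A, G or T, then A or G, then AC, then A, C or T), most often in long exons and near stop codons, and that reader proteins tie to the stability and translation of mRNA. MeRIP-seq places it only within the stretch of a called peak. The authors called peaks in each IP library against its own input, so that each of the 4 lists is 1 replicate, and each line gives a p-value and the fold of IP over input. The question put to the lists is which member transcripts carried the mark in each state and how strongly.

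At least 1 peak lay on 33 of the 38 members. *Myoz1*, *Myoz3*, *Myot*, *Tmod4* and *Cmya5* had none, and these were the 5 members under the expression filter. A peak was present on 18 members in GM replicate 1, on 18 in GM replicate 2, and on 31 in each 3d DM replicate, while genes with a peak in the whole lists numbered 7574 and 7164 in GM against 7471 and 6294 in 3d DM. For the members, the 2 lists of a state were equal and the states did not overlap, and the exact permutation p of 0.333 is the smallest that 2 libraries against 2 can give. Merged where they shared a base, the lines gave 33 distinct peaks on members in each GM list and 70 and 69 in the 3d DM lists (33 ± 0 against 69.5 ± 0.71, SD, n = 2, exact permutation p = 0.333). With only lines of a fold of at least 4, the distinct peaks were 21 and 14 in GM compared with 19 and 18 in 3d DM, without a surplus beyond the spread. With only lines of p at most 1e-05 they were 19 and 22 in GM against 55 and 51 in 3d DM (exact permutation p = 0.333). The part of the input level in the folds was not tested.

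Presence was set beside the input level. All 4 lists held a peak for 16 members (54.5% of the 9153 genes with a peak anywhere were in all 4), and their mean GM levels ran from 22.4 to 6901.5 with a median of 482. Peaks in both 3d DM lists and in no GM list were found for 11 members: *Myoz2*, *Tcap*, *Csrp3*, *Nrap*, *Myom1*, *Mybpc1*, *Ankrd23*, *Smpx*, *Ablim3*, *Unc45b* and *Hspb7*. That pattern held for 2.31% of all genes with a peak and for 18.3% of the 557 non-member genes that rose in 3d DM and had a peak. All 11 rose, and their mean GM levels ran from 1.07 to 126 with a median of 12.6, against 129 to 1479.0 in 3d DM. A peak caller needs reads in both libraries, so absent marks and too little RNA in GM cannot be told apart for these genes. No member had peaks in both GM lists and in neither 3d DM list, a pattern of 3.56% of all genes with a peak. *Myom3* and *Ankrd2* were in both 3d DM lists and 1 GM list, *Pdlim7* in both GM lists and that of 3d DM replicate 2, *Actn2* and *Mybpc2* in the list of 3d DM replicate 1 alone, and *Fhl1* in that of 3d DM replicate 2 alone.

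A high level did not always come with a peak, nor a low one without. *Fhl1*, with 2989.7 or more in every input library, had 1 short peak of 69 exon bases at a fold of 1.94 in 3d DM replicate 2 and none elsewhere. *Actn2*, at 808.4 and 1172.3 in 3d DM, had 1 peak at a fold of 6.38 over the 5′ UTR and coding start in replicate 1 and none in replicate 2. *Lmod2*, at 32.8 and 12.1 in GM, had peaks in both GM lists at folds of 21 and 13.7.

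**Figure D4:**
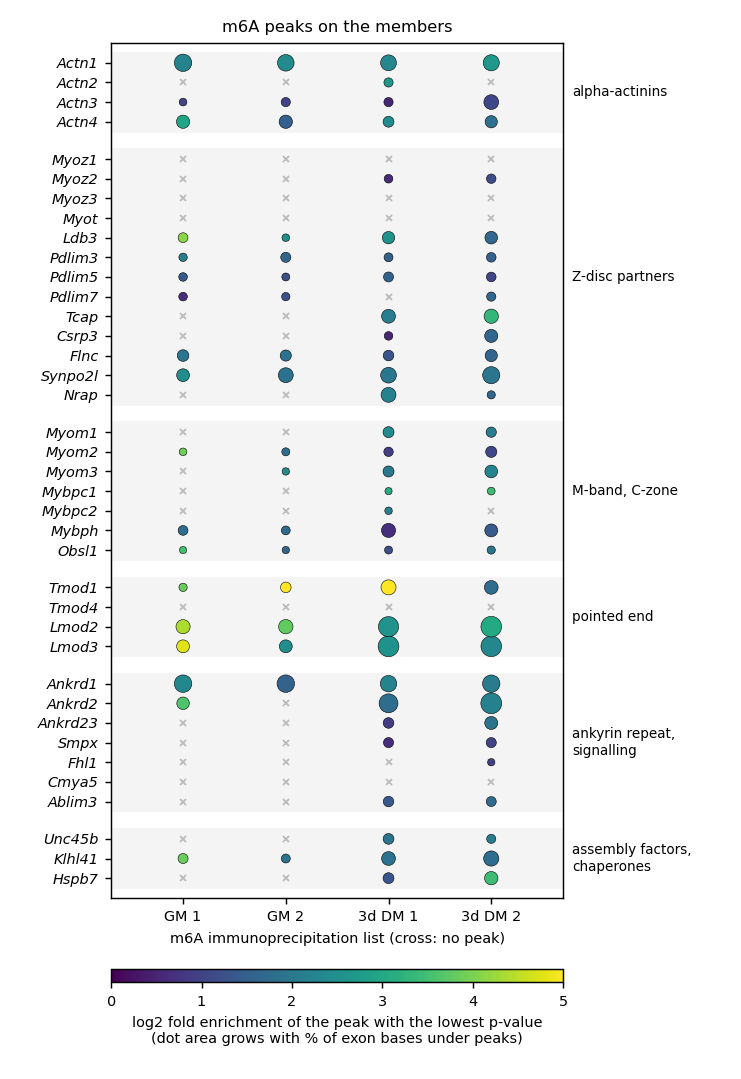
Peaks on each member in the 4 IP lists, where a cross marks no peak, the colour gives the log2 fold enrichment of the line with the lowest p-value, and the area of a dot grows with the percentage of exon bases under peaks. Crosses fill both GM columns and dots both 3d DM columns for 11 members, and the widest dots are those of *Lmod2*, *Lmod3* and *Ankrd2* in 3d DM.

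The peaks of 78 distinct regions on members were compared across the lists. Of these regions 21 were in all 4 lists, 23 in both 3d DM lists only, none in both GM lists only, and 24 in 1 list only (26.9%, 29.5%, 0.00% and 30.8% of them). Of all 19516 regions of the series, 30.6%, 2.72%, 3.83% and 37.9% had these patterns. The 2 3d DM lists shared 53 of the 71 regions that either held, and the GM lists 22 of 38. *Flnc* had 4 regions in all 4 lists, at the 5′ UTR and coding start, at 2 stretches of the coding sequence and in the 3′ UTR. *Synpo2l* had 2, in the coding sequence and the 3′ UTR, and *Actn4* had 3, in the coding sequence, over the stop codon and in the 3′ UTR. *Actn3*, whose level per kilobase exceeded that of *Synpo2l* in 3d DM, had no region in all 4 lists and folds of 2.19 or less.

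The 6 windows below lie in coding sequence under the shared peaks with the highest mean log2 fold, 1 for each gene. They were taken from peaks where the lines that give the fold overlap in all 4 lists. Each shows the DRACH match (capitals) nearest the middle of the longest stretch of exon that these 4 lines share, read 5′ to 3′ on the gene's strand from the mm10 genome. They lie at chr6:97248162-97248190 (minus strand) in *Lmod3*, chr6:29433527-29433555 (plus) in *Flnc*, chr14:20662166-20662194 (minus) in *Synpo2l*, chr12:80168354-80168382 (minus) in *Actn1*, chr2:69670901-69670929 (plus) in *Klhl41* and chr19:36119281-36119309 (minus) in *Ankrd1*. The shared stretches were 540, 391, 359, 419, 209 and 180 bases long, so that MeRIP-seq does not say which adenosine in them carried the mark. The mean leans on GM replicate 1 in *Lmod3*, with 27.1 there against 5.48, 5.88 and 5 in the other lists. The same holds for *Klhl41*, with 14.4 against 3.65, 3.64 and 3.41. That list also had the highest fold in *Flnc* and *Ankrd1*, but not in *Synpo2l* and *Actn1*.
Lmod3: aatagccaaattAGACCctaagaagttag
Flnc: gtccacggagaaGGACCtagcggaggacg
Synpo2l: tcaatccgactgGGACAgcccctatctag
Actn1: gcccggtgctttAGACTacatgtccttct
Klhl41: tgtcgagaaagaTGACAtaattaaaagca
Ankrd1: ggagaagcaagaGGACCtgaagacacttc

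DRACH matches numbered 20.9 per kilobase of exon in the 78 member regions and 22.5 in the 19497 regions of the series that the reference sequence covers, and at least 1 match was in 92.3% and 95.2% of them. Member regions were longer, with a median of 354 exon bases against 270. By the authors' labels, lines on members touched the coding sequence in 72.7% to 79.2% of cases and the 3′ UTR in 30.6% to 45.5%, over the 4 lists. Lines centred within 200 nt of the stop codon made up 11.4% and 18.3% of those on members in GM against 19.1% and 18.3% in 3d DM, below the 24.7%, 28.9%, 23.6% and 27.4% of all genes in the same lists. These shares count a line for every transcript of a gene, and the members' lines come from few genes, so they carry no test.

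The highest mean log2 fold among the 21 regions in all 4 lists lay in the 3′ UTR of *Tmod1*, at chr4:46114751-46115526 on the plus strand. Its folds were 14.4 and 32.9 in GM against 34.9 and 12.1 in 3d DM, so that the replicates of a state differed more than the states, although the level of *Tmod1* rose between them. The region holds 20 DRACH matches in 776 exon bases. *Hspb7* and *Tcap*, with peaks in 3d DM only, also carried them in the 3′ UTR, at 2.94 and 10.9 (the stronger of 2 regions in *Hspb7*) and at 4.31 and 9.74 in 3d DM replicates 1 and 2. *Myom1* had folds of 5.23 and 4.31 over its stop codon, and *Nrap* had 4.66 and 3.13 in its coding sequence.

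No member region in all 4 lists passed the test for a difference in peak strength between states (limma on log2 fold over all 5976 such regions, 0.00% of which passed at an adjusted p under 0.05, and the lowest adjusted p was 0.0504). An unadjusted p under 0.05 was found for 2 of the 21 member regions and for 227 of all. The member regions' median difference was -0.26 in log2 fold, and that of all regions -0.10. Both GM folds lay above both 3d DM folds at 7 member regions and at 21.3% of all regions, and the reverse held at 1 and at 9.12%. The member regions with an unadjusted p under 0.05 also had the lowest differences, that of *Myom2* at its 3′ end, with folds of 14.9 and 3.56 in GM against 1.91 and 2.08 in 3d DM (-1.87 ± 0.63, limma adjusted p = 0.999), and that of *Lmod2*, with 21 and 13.7 in GM, on lines that do not overlap each other, compared with 5.94 and 8.23 in 3d DM (-1.28 ± 0.44, limma adjusted p = 0.999). *Lmod3* had 27.1 and 5.48 in GM against 5.88 and 5.0 in 3d DM, *Ldb3* 17.5 and 5.48 against 5.83 and 4.62 in its 3′ UTR, and *Klhl41* 14.4 and 3.65 against 3.64 and 3.41. In these 5 regions GM replicate 1 had the highest fold, as it had in 13 of the 21 (61.9%, beside 35.7% of all regions). The exomePeak p-values behind these 5 folds were 5.62e-08 to 0.000209 in GM replicate 1 against 1e-239 to 1e-29 in 3d DM replicate 1. Equal folds also recurred in the list of GM replicate 1, such as 17.5 in *Ldb3* and *Lmod2* and 14.4 in *Klhl41* and *Tmod1*. The part of low GM input in these folds was not tested. Without that library the differences were -0.84 for *Myom2*, -0.97 for *Lmod2*, -0.02 for *Lmod3*, -0.08 for *Ldb3* and -0.05 for *Klhl41*, and the medians were -0.08 over the 21 and 0.00 over all regions.

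**Figure D5:**
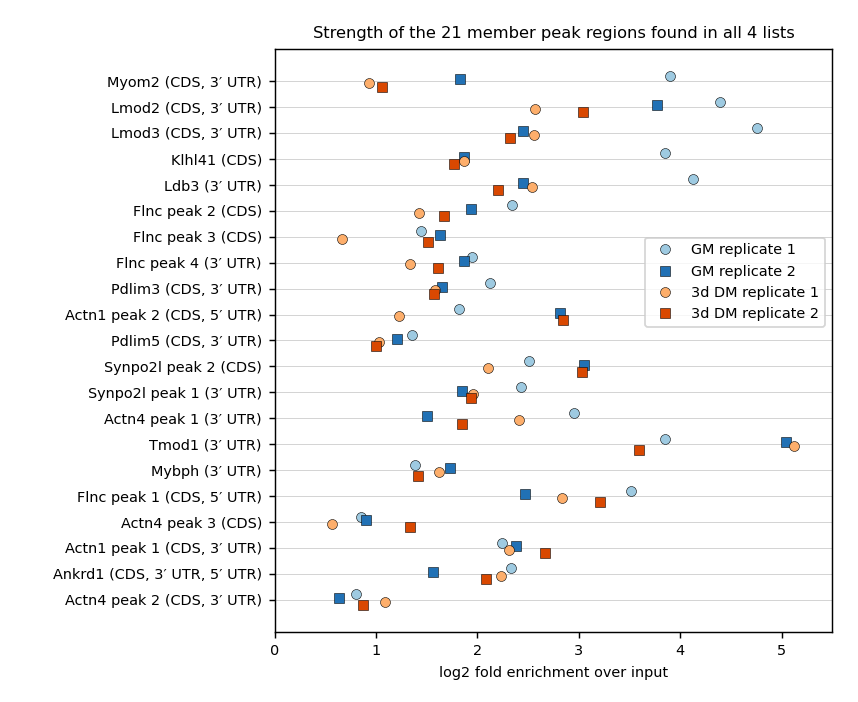
Log2 fold enrichment over input of the 21 member regions in all 4 lists, with 1 point for each IP library and the transcript part touched in brackets, sorted by the difference between states. The light blue points of GM replicate 1 reach furthest right for *Lmod3*, *Lmod2*, *Ldb3*, *Myom2* and *Klhl41*, and in most other rows the points of the states overlap.

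A fold belongs to the stretch that was called, and the stretches differed. The lines behind the 4 folds shared at least 91 exon bases in 19 of the 21 regions and none in those of *Lmod2* and *Pdlim5*. In *Lmod2* the fold of 21 in GM replicate 1 lay on the earlier of 2 peaks and that of 13.7 in GM replicate 2 on the later one, where replicate 1 had 17.5 and the earlier peak of replicate 2 had 13.3. In *Pdlim5* the GM lines lay in the coding sequence and the 3d DM lines over the coding end and the 3′ UTR, so its folds were not measured at the same place. Peaks covered 720 and 750 exon bases of *Lmod2* in GM (36.4% and 38% of its exons) and 1677 and 1767 in 3d DM (84.9% and 89.4%), and *Lmod3* went from 28.4% and 28.5% to 90.6% and 89.2%. The peaks of *Ankrd1* covered 52.9% to 61.2% in all 4 libraries, at folds of 5.02 and 2.95 in GM against 4.69 and 4.24 in 3d DM, and its level had no called change. *Actn1*, another abundant gene without a called change, was covered by 60.3% and 54.1% in GM against 48.5% and 50.4% in 3d DM. Over the members with a peak, the median share covered was 12.5% and 11.3% in GM against 17% and 26.9% in 3d DM. The part of the input level in these shares was not tested.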

How the data were processed

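Members, roles and the other gene lists were chosen with earlier results of these data known. RNA was taken from C2C12 cells in GM and 3d DM, with 2 input and 2 IP libraries each, grouped by the deposit's labels. Read alignment by the authors used HISAT2 2.1.0 and the mm10 build, and their peak calls came from exomePeak, run separately on every IP library and its input at P ≤ 0.05. The lists the authors deposited give a p-value and a fold (ratio of IP over input) for every peak and transcript, and the largest p-values in them were 0.00776 to 0.0107. The expression table the authors deposited holds a normalized signal made from gene counts with edgeR, whose name refers to TMM scaling. Its low values recur in pairs within a state (47.4% of 2171 low genes in GM, 55.0% in 3d DM) and not between states (0.461%), as in quantile-adjusted pseudo-counts, so a library's value can depend on its replicate, reads could not be recovered and no counting error is given. The largest entry takes 24.4% to 41.3% of a column.

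The 11406 genes that reached 25.1, which is 2 cpm of a column's sum, in 2 or more libraries entered a two-sided limma fit (3.58.1, under R 4.3.3) of log2(value + 1). It had an intensity trend, and p-values were adjusted by Benjamini-Hochberg. The log2(value + 1) scale understates the changes of low genes. On simulated data of these 11406 genes, 176 of 200 planted fold changes of 4 were called, with 5 unchanged genes. The simulated noise was independent between libraries and its spread followed the level alone, as the fit assumes. These numbers therefore do not say how reliable the calls are for genes with a spread of their own. The paper's filter asks for 3 samples, which was run as an alternative. Levels between genes were compared per kilobase of union exons (GENCODE M21). Peak lines sharing an exon base on 1 strand were merged, and the fold of the line with the lowest p-value stood for a region in the limma fit of log2 fold without a trend. Peak numbers were tested by exact permutation, two-sided. Named genes were all members, the 3 largest called differences in each direction of the non-member lists, and 5 state checks. Some genes that the rule names are not reported here. Promoter windows are from RefSeq. Alternatives were other filters, pseudocounts of 0.1 and 4, the replicate block, no trend, rescaling by median-of-ratios and trimmed-mean factors (trim 30% and 5%), stricter peaks (p at most 1e-05, fold at least 4), other merging and each replicate left out. The gene's own variance was added after seeing the data. Python 3.11.15 (pandas 2.3.3, numpy 2.4.6, scipy 1.17.1) ran the remaining steps, and matplotlib 3.10.9 drew the plots. Protein sequences were not used here.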

Additional observations from a re-analysis of the deposited data

How the results depend on the processing

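The 27 calls for members kept their direction under every alternative that gave them a value. Under filters that need the level in 3 of 4 or in every library, 16 and 12 of the members left were called, since members low in GM are removed. With no filter 29 passed, *Myot* and *Myoz1* among them. Leaving out 1 library gave 13 to 27 calls for members, 2 to 8 for paralogs (12 with all libraries) and 3 to 14 for the other sarcomere genes (14 with all), fewest without 3d DM replicate 1. In the same fits 0.885% to 5.95% of all genes were higher, against 7.01%. With the gene's own variance, 0 members, 0 paralogs and 0 other genes were called. Rescaling moved the median of all genes from -0.22 to -0.02 and cost *Pdlim3* its call. It also turned the uncalled difference of *Ankrd1* to 0.09 (median-of-ratios factors) and 0.08 (trimmed-mean factors), and with 1 library left out *Ankrd1* ranged from -0.44 to 0.20 (0.07 without 3d DM replicate 1) and *Fhl1* from -0.09 without 3d DM replicate 2 to 0.47. The replicate numbers share only a number, since the labels name no common batch and there are 2 pairs (correlation of deviations 0.29). With the replicate block, 27 members, 9 paralogs (7 higher, 2 lower) and 13 other genes were called, and *Flna* did not pass (adjusted p = 0.0931 by limma). The surplus of members with a peak in 3d DM, 13 in the mean of a list, was 17.5 with peaks of p at most 1e-05 and 5 with a fold of at least 4. That of distinct peaks, 36.5, was 32.5, 1 and, merged at 50% overlap, 37, and 36 to 37 with 1 list left out. No member region was called under any of the 9 alternatives of the peak fit. Neither table holds read numbers, so what depth limits could not be worked out.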
